A study of Homo sapiens with 9 samples.

Results

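The genes described here are those whose RNA fell when TLX-overexpressing cells received an siRNA against TLX, although TLX overexpression itself had moved them little. They were chosen from group means of log2 CPM, the logarithm to base 2 of reads scaled to library size. A gene had to average 1 log2 CPM or more over the 9 libraries. Its mean in TLX+siCTL had to lie within 0.25 log2 units (a ratio of 1.19) of its mean in CTL+siCTL. Its mean in TLX+siTLX had to be at least 0.6 log2 units below its mean in TLX+siCTL, a ratio of 0.660 or less. Of 11886 gene symbols with a mean of at least 1 log2 CPM, called expressed genes from here on, 141 met the rule, and 5606 met the condition on overexpression alone. Because the rule used all 3 groups, the levels and group differences of these genes are a description and carry no test.

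The RNA came from MDA-MB-231 cells, an established line of triple-negative breast cancer, and was sequenced to follow what the nuclear receptor TLX, encoded by NR2E1, does to their transcripts. The groups were TLX-overexpressing cells transfected with a TLX-targeting siRNA (TLX+siTLX, libraries S7 to S9), TLX-overexpressing cells given a universal non-targeting siRNA as control (TLX+siCTL, S4 to S6), and control cells given that same reagent (CTL+siCTL, S1 to S3). All cells were therefore transfected with some siRNA for 48 h, delivered with a lipid reagent, and TLX+siTLX differed from TLX+siCTL by which one. PC3, a name shared with a line of prostate cancer, appears without explanation in the titles of the CTL+siCTL samples, whose stated line is MDA-MB-231. The means of TLX overexpression, whether those cells were 1 clone, and the 2 siRNA sequences were not given in the labels. The labels do not say that the 3 libraries of a group came from separate cultures, so the spread between them may be technical. In bulk RNA, fewer cells with a transcript and less of it per cell cannot be told apart.

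An siRNA is a short RNA duplex whose guide strand is loaded into an Argonaute protein and directs the cutting of a fully paired transcript. The same guide can also act as a microRNA does: bases 2 to 8 from its 5′ end, called the seed, pair with a short word, most often in the 3′ untranslated region (UTR) of other messages. Argonaute then recruits a TNRC6 protein, and the message is deadenylated and decays. Such seed-directed losses differ from one siRNA sequence to the next.

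To look for a sequence that these genes share, every 7-base word in the 3′ UTRs of 11202 expressed genes, 129 of them members, was related to the difference between TLX+siTLX and TLX+siCTL, with the length of the UTR and its share of A and U as covariates. Among the 16145 words found in at least 50 genes, the one with the lowest ratio of coefficient to standard error was ACACTCT. The following stretches surround it in the 10 genes of the 20 lowest members that hold it. CDKN2AIPNL, the lowest of all, has the overlapping word CACTCTA instead, and NR2E1 itself holds ACACTCT in its 5′ UTR and in its coding sequence. Each stretch is 30 bases of GRCh38 read 5′ to 3′ on the strand of the gene, and the capitals mark the word.
CDKN2AIPNL: tatttataaatcatgCACTCTAagatgagt
POLR3K: ccttactcccaatcaACACTCTtaaatatt
GLRX: ctgtggtcatgcggaACACTCTgttattta
RNF185: tcgccaccgctgtaaACACTCTataacttc
UBE4A: ttgctatttgatatcACACTCTacaaaagc
PAK4: tattgtcattttataACACTCTagcccctg
STARD3NL: tgtatttcttttttaACACTCTacatttcc
ELMOD2: attatctgatcaattACACTCTtatatata
AHCYL1, upstream site: gtccacctgaaccacACACTCTaaagaaat
AHCYL1, downstream site: gtttttaactagactACACTCTattgagtt
JMY: atattaaatactgtgACACTCTgagaaagt
MRPS23: tgtatgctggcattcACACTCTactcactg
NR2E1, 5′ UTR: cggcagagattgcccACACTCTgcatgcct
NR2E1, coding sequence: ttccggttgatgctaACACTCTactggctg
These lie at chr5:134402672-134402701 on the minus strand for CDKN2AIPNL, chr16:47105-47134 on the minus strand for POLR3K and chr5:95814244-95814273 on the minus strand for GLRX. They lie at chr22:31204772-31204801 on the plus strand for RNF185, chr11:118398881-118398910 on the plus strand for UBE4A and chr19:39179224-39179253 on the plus strand for PAK4. STARD3NL has its stretch at chr7:38230310-38230339, ELMOD2 at chr4:140550445-140550474 and JMY at chr5:79322047-79322076, all on the plus strand. Those of AHCYL1 are at chr1:110021703-110021732 and chr1:110022311-110022340 on the plus strand, and that of MRPS23 is at chr17:57839738-57839767 on the minus strand. In NR2E1, on the plus strand, they are at chr6:108166302-108166331 and chr6:108180384-108180413. The 2 are the copies found in the 3212-base NR2E1 transcript. Copies outside the 3′ UTR are not rare. Of the 11202 expressed genes, 801 have the word in the coding sequence and not in the 3′ UTR, and 73 in the 5′ UTR alone. Whether either NR2E1 copy has any effect was not tested. The coding one is followed by A, as are the sites of RNF185, UBE4A, PAK4, STARD3NL, MRPS23 and both of AHCYL1.

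NR2E1, the gene that both manipulations targeted, was at -2.61, -3.40 and -1.77 log2 CPM in the TLX+siTLX libraries S7, S8 and S9, against 0.28, -0.84 and 0.23 in TLX+siCTL and -4.59, -4.28 and -4.50 in CTL+siCTL. The 3 groups did not overlap, and the TLX+siTLX libraries lay between the others. With limma over all 27548 rows, the difference between TLX+siTLX and TLX+siCTL was -2.48 log2 units (SE 0.47, adjusted p 0.00494) and that between TLX+siCTL and CTL+siCTL was 4.35 (adjusted p 0.000133). TLX+siTLX stayed 1.86 above CTL+siCTL (adjusted p 0.0134), a call that was lost without library S1 (1.80, adjusted p 0.0549) and on a log2(CPM + 1) scale (0.18, adjusted p 0.387). NR2E1 is far below the level the rule asks for and is not among the 141 genes.

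Of 14 genes that mark MDA-MB-231 and other basal B breast lines, 13 averaged at least 1 log2 CPM, and their summed level was 8083 to 8500.5 CPM in TLX+siTLX, 6468 to 6615 in TLX+siCTL and 5594 to 5768 in CTL+siCTL. Prostate markers reached that level in 3 of 12 cases, with sums of 51.3 to 55.6 CPM in TLX+siTLX, 49.7 to 51.95 in TLX+siCTL and 49.2 to 51.3 in CTL+siCTL, and FOLH1, HOXB13, KLK2, KLK3 and KLK4 averaged -3 or less. Luminal markers reached it in 8 of 15 cases (1352 to 1439 CPM in TLX+siTLX, 1080.3 to 1148 in TLX+siCTL, 1786 to 1827 in CTL+siCTL), with FOXA1 at -3 or less. Stromal or leukocyte markers reached it in 3 of 13 cases (91.9 to 105.4 CPM in TLX+siTLX, 54.9 to 55.9 in TLX+siCTL, 88.3 to 90.8 in CTL+siCTL), with CD3E, CDH5 and COL3A1 at -3 or less. The basal, luminal and stromal sums were higher in TLX+siTLX than in TLX+siCTL, while the 141 genes were lower, and any part of these markers in the result was not tested. Libraries S7 and S9 of TLX+siTLX were the least alike pair of any group: over the expressed genes their differences had an SD of 0.24 log2 units, against 0.155 to 0.203 for the other pairs.

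The median member lay 0.74 log2 units lower in TLX+siTLX than in TLX+siCTL, with a range of -2.21 to -0.60, where the median expressed gene differed by -0.00. The fall was at least 1 log2 unit in 22 members, between 0.8 and 1 in 23 and between 0.6 and 0.8 in 96. In the overexpression step, TLX+siCTL minus CTL+siCTL, the median member moved by 0.03, with 81 members above 0 and 60 below. Between TLX+siTLX and CTL+siCTL the members had a median of -0.73 and a range of -2.16 to -0.36. Their expression was ordinary: the median of their 9-library means was 4.85 log2 CPM, against 5.08 over the expressed genes, with a range of 1.10 to 11.44.

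**Figure D1:**
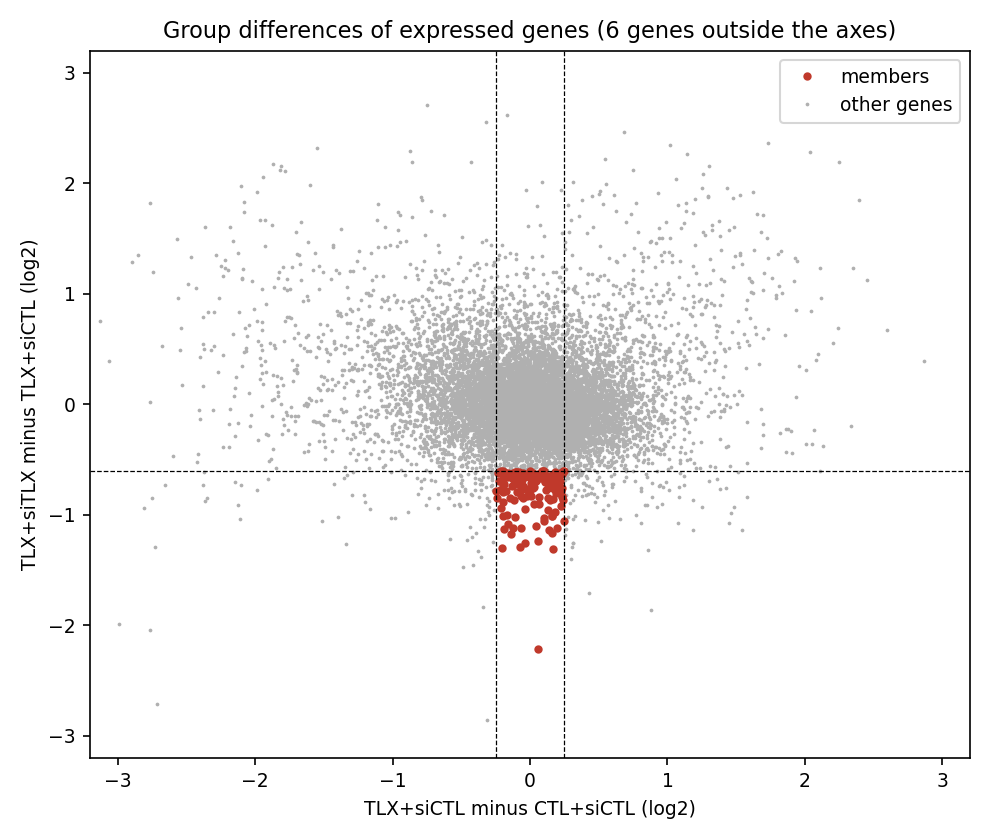
Difference of group means (log2) of each expressed gene, with TLX+siTLX minus TLX+siCTL on the vertical axis and TLX+siCTL minus CTL+siCTL on the horizontal axis; dashed lines are the limits of the rule and red points the 141 members. The members fill the band between -0.25 and 0.25 below -0.6, most of them close to the upper edge, with CDKN2AIPNL alone at -2.21.

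The limits of the rule fell in a dense part of the distribution. TMEM154, AP3B1 and OSGIN1 were just inside at -0.60, while C1orf43, AGO1 and ZXDC, at -0.5992, -0.5983 and -0.5968, were just outside. In the overexpression step LACC1 (-0.246), ZNF501 (0.2469) and NXPH4 (0.2486) were the last inside, and ZNF460 (-0.2506), TRMT12 (0.2512) and PLCXD2 (0.2513) the first outside. At the lower limit of expression SLC25A1P5 (1.29), AL358113.1 (1.18) and ZNF852 (1.10) were kept and LENG9 (0.95), KCNAB1 (0.89) and NPIPB13 (0.86) were not. A limit of -0.5 in place of -0.6 would have given 252 genes, and one of -0.8 would have given 45.

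With limma at an adjusted p under 0.05, 137 of the 141 members (97.2%) were called lower in TLX+siTLX than in TLX+siCTL, against a background of 22.5% of the expressed genes called lower. The rule used this contrast, so nothing is read from that share. The same holds for the authors' deposited table, in which 137 members had a false discovery rate under 0.05 and a fall, against a background of 23.2%, and for TLX+siTLX against CTL+siCTL, where 135 members were called lower against a background of 31.7%. In the overexpression step 13 members were called lower (background 27.9%) and 16 higher (background 29.6%), all of them by less than 0.25 log2 units. Both counts fell whichever library from S1 to S6 was left out. The 13 became 4 without S1, S2, S4 or S6, 6 without S3 and 7 without S5. The 16 became 10 without S1 or S3, 11 without S6, 12 without S4 and 13 without S2 or S5. Such fits have fewer libraries, and over all rows the calls in this step also fell, from 8304 to between 7033 and 7330. Without limma's intensity trend 1 member was called lower and 10 higher, and with quantile normalization the 13 became 8.

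In 137 members all 3 TLX+siTLX libraries lay below all 3 TLX+siCTL libraries, which was so for 29.6% of the expressed genes. The 4 members that overlapped were SLC39A7, H4C15, HCN3 and AL358113.1. H4C15, a histone H4 gene, was at 0.61, 0.93 and 1.84 log2 CPM in TLX+siTLX, against 1.30, 1.78 and 2.18 in TLX+siCTL and 2.16, 1.75 and 1.15 in CTL+siCTL. SLC39A7, a zinc transporter of the secretory pathway, was at 5.73, 6.44 and 6.10 in TLX+siTLX, against 7.14, 6.20 and 7.42 in TLX+siCTL and 7.34, 6.82 and 6.80 in CTL+siCTL. Both are uncertain: H4 genes are near-identical copies, and SLC39A7 stands on 6 rows of the deposited table, among which reads can be split. Against CTL+siCTL the 3 TLX+siTLX libraries were likewise below in 137 members (35.5% of expressed genes), the exceptions being SEC22B4P, ANKRD36B, H4C15 and HCN3.

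No single library made the fall. Relative to the TLX+siCTL mean, the median member was at -0.73 in S7, -0.73 in S8 and -0.78 in S9. S9 was the lowest of the 3 in 62 members, S7 in 41 and S8 in 38. Within TLX+siTLX the median member had an SD of 0.12, against 0.10 for the median expressed gene. In TLX+siCTL these were 0.07 and 0.06, and in CTL+siCTL 0.06 and 0.06. With S9 left out the rule gave 142 genes, of which 121 were among the 141. Membership changed most without the TLX+siCTL libraries S4 (149 genes, 114 of them among the 141) and S6 (148 genes, 120 of them).

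CDKN2AIPNL, a small protein named for its likeness to the N terminus of CDKN2AIP, a partner of the tumour suppressor ARF, fell furthest. It was at 1.64, 1.23 and 1.62 log2 CPM in TLX+siTLX, against 3.79, 3.72 and 3.61 in TLX+siCTL and 3.60, 3.73 and 3.63 in CTL+siCTL. The TLX+siTLX libraries stood apart from the other 6, which lay close to each other. The difference between TLX+siTLX and TLX+siCTL was -2.21 (SE 0.11), a ratio of 0.216, and the authors' deposited table gives a signed fold of -4.65, in which a fall is minus the inverse ratio. The next lowest member was at -1.31, and CDKN2AIPNL stood apart from all other members.

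**Figure D2:**
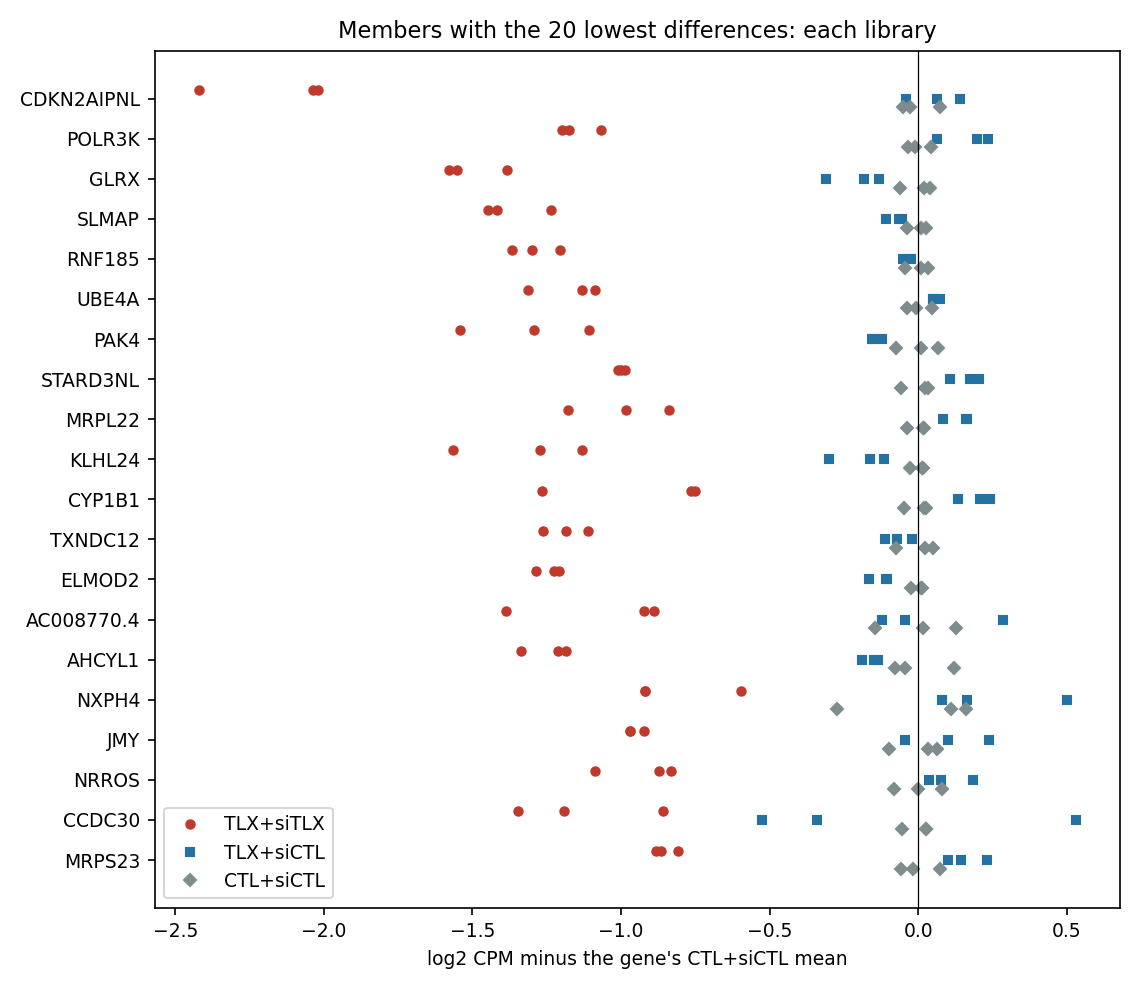
Log2 CPM of each library minus the gene's mean in CTL+siCTL, for the 20 members with the lowest differences; red circles are TLX+siTLX, blue squares TLX+siCTL and grey diamonds CTL+siCTL libraries. In each of the 20 genes the 3 red circles lie left of the other 6 points, furthest in CDKN2AIPNL, and the widest spread of blue squares is that of CCDC30.

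POLR3K, a small subunit of RNA polymerase III, the enzyme that makes transfer RNA and 5S ribosomal RNA, was at 1.36, 1.34 and 1.47 log2 CPM in TLX+siTLX, against 2.60, 2.77 and 2.73 in TLX+siCTL and 2.50, 2.53 and 2.58 in CTL+siCTL. GTF3C6, a subunit of the factor TFIIIC that recruits this polymerase, averaged 3.88 ± 0.03 in TLX+siTLX, 4.52 ± 0.03 in TLX+siCTL and 4.36 ± 0.07 in CTL+siCTL (SD, n = 3 each). TAF10, a subunit shared by TFIID and the SAGA coactivator, averaged 4.82 ± 0.15 in TLX+siTLX, 5.52 ± 0.07 in TLX+siCTL and 5.74 ± 0.07 in CTL+siCTL. Of these 3 transcription genes POLR3K holds ACACTCT in its 3′ UTR.

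Members that attach, read or remove ubiquitin, the tag for degradation, numbered 10, a group formed after the values were seen, as were all the functional groups that follow, so none was tested. They lay between -1.26 and -0.66, and 5 of them, RNF185, UBE4A, UBE2W, MINDY2 and SQSTM1, hold ACACTCT in the 3′ UTR. RNF185, a ubiquitin ligase of the endoplasmic reticulum that serves the degradation of misfolded membrane proteins, was at 4.86, 4.96 and 4.79 log2 CPM in TLX+siTLX, against 6.11, 6.14 and 6.13 in TLX+siCTL and 6.19, 6.17 and 6.12 in CTL+siCTL. UBE4A, a U-box ligase that extends ubiquitin chains, was at 5.74, 5.70 and 5.52 in TLX+siTLX, against 6.88, 6.88 and 6.90 in TLX+siCTL and 6.82, 6.79 and 6.88 in CTL+siCTL. In both genes the TLX+siTLX libraries were the low ones, and TLX+siCTL minus CTL+siCTL was -0.03 for RNF185 and 0.06 for UBE4A. KLHL24, a substrate adaptor of cullin 3 ligases, was at 5.81, 5.67 and 5.38 in TLX+siTLX, against 6.65, 6.78 and 6.83 in TLX+siCTL and 6.96, 6.96 and 6.92 in CTL+siCTL. It holds the word in its coding sequence and not in its 3′ UTR.

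SQSTM1, the p62 receptor that carries ubiquitinated cargo to autophagosomes, was the most abundant member. It was at 10.93, 10.95 and 11.02 log2 CPM in TLX+siTLX, against 11.66, 11.65 and 11.62 in TLX+siCTL and 11.67, 11.75 and 11.68 in CTL+siCTL. The difference of -0.68 was therefore many times the spread of any group, whose SD was 0.05 or less. UBE2W, a conjugating enzyme that places ubiquitin on protein N termini, has 4 copies of ACACTCT in its 3′ UTR, the most of any member. It averaged 4.47 ± 0.10 in TLX+siTLX, 5.24 ± 0.02 in TLX+siCTL and 5.26 ± 0.05 in CTL+siCTL, a difference of -0.77 between TLX+siTLX and TLX+siCTL.

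Proteins of mitochondria made up another 10 members, between -1.14 and -0.62, and MRPS23, IDH3A and OXA1L of them hold the word. MRPL22, of the large subunit of the mitochondrial ribosome, was at 3.49, 3.15 and 3.35 log2 CPM in TLX+siTLX, against 4.49, 4.41 and 4.49 in TLX+siCTL and 4.29, 4.35 and 4.35 in CTL+siCTL. MRPS23, of the small subunit, was at 4.39, 4.37 and 4.45 in TLX+siTLX, against 5.36, 5.49 and 5.40 in TLX+siCTL and 5.20, 5.33 and 5.24 in CTL+siCTL. In both, TLX+siCTL was slightly above CTL+siCTL, by 0.14 and 0.16, and the TLX+siTLX libraries were below both groups. IDH3A, the catalytic subunit of the isocitrate dehydrogenase of the citric acid cycle, averaged 5.01 ± 0.06 in TLX+siTLX, 5.98 ± 0.01 in TLX+siCTL and 5.80 ± 0.06 in CTL+siCTL. COX11, which delivers copper to cytochrome c oxidase, averaged 4.68 ± 0.08 in TLX+siTLX, 5.63 ± 0.01 in TLX+siCTL and 5.50 ± 0.02 in CTL+siCTL.

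Redox and disulfide enzymes accounted for 5 members, between -1.30 and -0.60, of which GLRX and TXNDC5 hold the word. GLRX, glutaredoxin-1, which removes glutathione from protein thiols, was at 5.29, 5.12 and 5.10 log2 CPM in TLX+siTLX, against 6.49, 6.54 and 6.37 in TLX+siCTL and 6.69, 6.71 and 6.61 in CTL+siCTL. TXNDC12, a thioredoxin-fold protein of the endoplasmic reticulum, was at 4.87, 4.80 and 4.72 in TLX+siTLX, against 5.96, 5.91 and 5.87 in TLX+siCTL and 6.01, 6.03 and 5.91 in CTL+siCTL. In both every TLX+siTLX library was below all 6 libraries with control siRNA, and the group differences from TLX+siCTL were -1.30 and -1.12. TXNDC5, a protein disulfide isomerase, averaged 8.43 ± 0.0029 in TLX+siTLX, 9.21 ± 0.03 in TLX+siCTL and 9.01 ± 0.04 in CTL+siCTL. GCLM, the modifier subunit of the enzyme that limits glutathione synthesis, was at 7.24, 7.01 and 7.001 in TLX+siTLX, against 7.85, 7.98 and 7.95 in TLX+siCTL and 7.93, 7.82 and 7.84 in CTL+siCTL.

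Genes of membrane traffic came to 8 members, between -1.16 and -0.60, of which STARD3NL, ELMOD2, YIPF4 and AP3B1 hold the word. STARD3NL, which ties late endosomes to the endoplasmic reticulum, was at 4.13, 4.11 and 4.12 log2 CPM in TLX+siTLX, against 5.32, 5.23 and 5.29 in TLX+siCTL and 5.14, 5.15 and 5.06 in CTL+siCTL. ELMOD2, a GTPase-activating protein for ARL2 and related small GTPases, was at 3.83, 3.81 and 3.75 in TLX+siTLX, against 4.87, 4.93 and 4.93 in TLX+siCTL and 5.05, 5.05 and 5.01 in CTL+siCTL. The replicates of these genes were close, with an SD of 0.05 or less in each group. SLMAP, a tail-anchored protein of the STRIPAK phosphatase complex, was at 5.73, 5.91 and 5.70 in TLX+siTLX, against 7.08, 7.04 and 7.09 in TLX+siCTL and 7.16, 7.11 and 7.18 in CTL+siCTL. Its chosen transcript lacks ACACTCT, but the longest annotated 3′ UTR of the gene has 3 copies.

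Protein kinases were represented by 6 members, between -1.17 and -0.66, of which PAK4 and RPS6KA5 hold the word. PAK4, an effector of the GTPase CDC42, was at 4.45, 4.89 and 4.70 log2 CPM in TLX+siTLX, against 5.84, 5.87 and 5.84 in TLX+siCTL and 6.06, 6.00 and 5.92 in CTL+siCTL. CDK4, the cyclin D kinase that starts phosphorylation of the retinoblastoma protein, was at 6.31, 6.29 and 6.41 in TLX+siTLX, against 7.0004, 7.03 and 6.96 in TLX+siCTL and 7.05, 7.01 and 6.95 in CTL+siCTL. The 6 libraries with control siRNA lay together in CDK4, and the 3 with siTLX were lower by 0.66 on average. On the lists of cell cycle genes none was a member. Of 34 expressed genes of mitosis 33 were called higher and 0 lower in TLX+siTLX than in TLX+siCTL, with a median of 1.56. Of 33 of S phase 31 were called higher and 0 lower. The background over all expressed genes was 24.3% called higher and 22.5% called lower. Both lists were also higher in the overexpression step (background 29.6% called higher). There 32 mitosis genes were called higher and 1 lower, with a median of 1.09. For S phase these were 31 and 0, with a median of 1.02.

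Zinc finger and related DNA-binding proteins formed the group with the most members, 12, between -0.94 and -0.60, most of them scarce messages with means of 1.10 to 4.82 log2 CPM. Symbols beginning with ZNF were 8 of the 141 members (5.67%) and 432 of the expressed genes (3.63%). ZBTB34 and ZNF490 hold ACACTCT in the 3′ UTR. KLF9, a Krüppel-like factor induced by glucocorticoids, averaged 3.02 ± 0.07 in TLX+siTLX, 3.81 ± 0.11 in TLX+siCTL and 3.58 ± 0.05 in CTL+siCTL. ZNF genes are a large family of related sequences, and how their reads were shared between copies cannot be read from the table.

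CYP1B1, a cytochrome P450 induced through the aryl hydrocarbon receptor (AHR), was among the most abundant members. It was at 10.06, 10.07 and 9.56 log2 CPM in TLX+siTLX, against 10.96, 11.07 and 11.03 in TLX+siCTL and 10.85, 10.84 and 10.78 in CTL+siCTL. Library S9 was the lowest, and all 3 TLX+siTLX libraries were below the other 6, with a difference from TLX+siCTL of -1.12 (SE 0.12). AHCYL1, which binds the IP3 receptor and stands on the AHR list, was at 5.91, 5.88 and 5.76 in TLX+siTLX, against 6.90, 6.96 and 6.95 in TLX+siCTL and 7.22, 7.02 and 7.05 in CTL+siCTL. Of the 13 expressed genes on that list 6, AHCYL1 among them, were called lower (background 22.5%) and 1 higher (background 24.3%). The list had a median difference of -0.14. CYP1A1 (-2.85) and TIPARP (-0.82) were the lowest beside these members, while ALDH3A1 differed by 1.75.

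NAMPT, which makes nicotinamide mononucleotide in the salvage route to NAD, was at 10.83, 10.63 and 10.37 log2 CPM in TLX+siTLX, against 11.20, 11.16 and 11.29 in TLX+siCTL and 11.47, 11.45 and 11.32 in CTL+siCTL. Its pseudogene NAMPTP1 was at 4.70, 4.80 and 4.66 in TLX+siTLX, against 5.66, 5.83 and 5.68 in TLX+siCTL and 5.95, 5.97 and 5.75 in CTL+siCTL. The 2 sequences are near-identical, so reads of NAMPT can be counted for NAMPTP1. With means of 11.08 log2 CPM for NAMPT and 5.44 for NAMPTP1, this bears mainly on the value of NAMPTP1, which is uncertain. Other pseudogenes among the members were NMRAL2P, SEC22B4P, SLC25A1P5, CENPBD1P1 and SMG1P4. How reads were shared between them and related genes was not tested, so their values are uncertain too. The symbols of 12 members were on more than 1 row, among them HSPA1B, an inducible HSP70 gene on 5 rows, and the row with the highest mean was used.

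SLC3A2, the heavy chain that brings the amino acid exchangers LAT1 and xCT to the cell surface, is the sole member among 35 expressed genes of the unfolded protein and ATF4 responses. It was at 8.59, 8.48 and 8.56 log2 CPM in TLX+siTLX, against 9.31, 9.34 and 9.33 in TLX+siCTL and 9.53, 9.58 and 9.40 in CTL+siCTL. Of that list 24 genes were called lower and 3 higher in TLX+siTLX than in TLX+siCTL, with a median of -0.38. The list had also fallen in the overexpression step, with 27 called lower, 3 higher and a median of -0.49. NRF2 is a regulator of antioxidant genes. Of 29 expressed genes on the list of NRF2 and antioxidant genes, 20 were called lower and 4 higher in the siRNA step, with a median of -0.35. In the overexpression step 14 were called lower and 6 higher, with a median of -0.17. Members on the NRF2 list were GCLM and OSGIN1 (-0.60). SRXN1 (-0.67), HMOX1 (-0.58) and NQO1 (-0.48) also fell in the siRNA step but did not meet the rule. The background over all expressed genes was 22.5% called lower and 24.3% called higher in the siRNA step. It was 27.9% and 29.6% in the overexpression step. Both lists were drawn up with earlier results of these data known.

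TNRC6B, the Argonaute partner that carries out silencing, is the sole member among 24 expressed genes of the RNA interference machinery. It was at 5.08, 5.12 and 4.82 log2 CPM in TLX+siTLX, against 5.54, 5.50 and 5.98 in TLX+siCTL and 5.66, 5.40 and 5.77 in CTL+siCTL. The TLX+siTLX libraries lay below the other 6, and within TLX+siCTL, with an SD of 0.26, S6 was high. Its 3′ UTR holds 1 copy of ACACTCT. On the same list AGO1 (-0.60, just outside the rule), TSN (-0.32) and AGO4 (-0.28) were called lower as well, TNRC6A (0.34) was called higher, and the median was -0.01. Among 30 expressed genes of RNA sensing and the interferon response, which foreign duplex RNA can induce, none was a member, 11 were called higher and 4 lower, and the median was 0.12. For both lists the background over all expressed genes was 24.3% called higher and 22.5% called lower.

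BBC3, the pro-apoptotic BH3 protein PUMA, was the sole member of 28 expressed p53 targets. It was at 4.26, 4.47 and 4.52 log2 CPM in TLX+siTLX, against 5.11, 5.13 and 5.18 in TLX+siCTL and 5.40, 5.35 and 5.24 in CTL+siCTL. The p53 targets as a list were called higher in 9 and lower in 8 cases, with a median of 0.03. BCL2L2, an anti-apoptotic relative of BCL2 that holds the word, averaged 5.63 ± 0.03 in TLX+siTLX, 6.27 ± 0.08 in TLX+siCTL and 6.13 ± 0.22 in CTL+siCTL. Lists of NF-kB and inflammatory genes, cholesterol synthesis and transport between the endoplasmic reticulum and Golgi held no member. The same was so for phosphoinositide metabolism, mesenchymal genes, and TLX targets with corepressors. Among the expressed genes of these lists, in this order, the calls in the siRNA step were 9 higher and 6 lower of 28, 2 and 9 of 26, 2 and 17 of 35, 2 and 9 of 28, 13 and 0 of 16, and 4 and 4 of 17. Over all expressed genes 24.3% were called higher and 22.5% lower.

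JMY, a p53 cofactor that also nucleates actin, was at 5.57, 5.57 and 5.62 log2 CPM in TLX+siTLX, against 6.64, 6.50 and 6.78 in TLX+siCTL and 6.58, 6.44 and 6.61 in CTL+siCTL. NRROS, which anchors latent TGF-β1 on microglia and macrophages, was at 1.80, 2.02 and 2.06 in TLX+siTLX, against 3.07, 2.93 and 2.97 in TLX+siCTL and 2.81, 2.89 and 2.97 in CTL+siCTL. In both the TLX+siTLX libraries were about 1 log2 unit lower than either control-siRNA group. NXPH4, a neurexin ligand, was at 0.71, 1.03 and 0.71 in TLX+siTLX, against 1.80, 1.71 and 2.13 in TLX+siCTL and 1.74, 1.79 and 1.36 in CTL+siCTL. CCDC30, a coiled-coil protein, was at 1.17, 1.50 and 1.02 in TLX+siTLX, against 1.84, 2.02 and 2.89 in TLX+siCTL and 2.31, 2.39 and 2.39 in CTL+siCTL. S6 alone was high in CCDC30, whose difference of -1.02 had an SE of 0.25. AC008770.4, which the annotation used here does not hold, was at 0.85, 0.35 and 0.81 in TLX+siTLX, against 1.69, 2.02 and 1.62 in TLX+siCTL and 1.86, 1.59 and 1.75 in CTL+siCTL.

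The word ACACTCT was present in the 3′ UTR of 39 of the 129 members with a UTR (30.2%) and of 896 other expressed genes (8.09%). Its coefficient was -0.18 log2 units (SE 0.015) for TLX+siTLX minus TLX+siCTL, -12.2 times its standard error, where the next lowest words, CACTCTA (-6.71) and CACTCTT (-6.50), overlap it and the largest positive ratio of any word was 4.73. Genes are not independent replicates and the word was picked from these differences, so no p is given. In the overexpression step the coefficient of the word was 0.01 (0.48 times its standard error), which placed it 9265th, in a range of -6.37 to 4.74 over all words. For TLX+siTLX minus CTL+siCTL it was -0.17 (-7.10 times its standard error). That value is the sum of the coefficients of the siRNA step and the overexpression step, so it adds no separate result. Measured in each TLX+siTLX library against the TLX+siCTL mean, the coefficient was -0.18 in S7, -0.17 in S8 and -0.19 in S9. Their mean was -0.18 ± 0.0075 (SD, n = 3). The same TLX+siCTL mean was subtracted each time, so this SD holds none of the spread between the TLX+siCTL libraries. The word was also picked with these libraries. With the members left out of the regression, an alternative chosen after the data were seen, the coefficient for TLX+siTLX minus TLX+siCTL was -0.16.

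**Figure D3:**
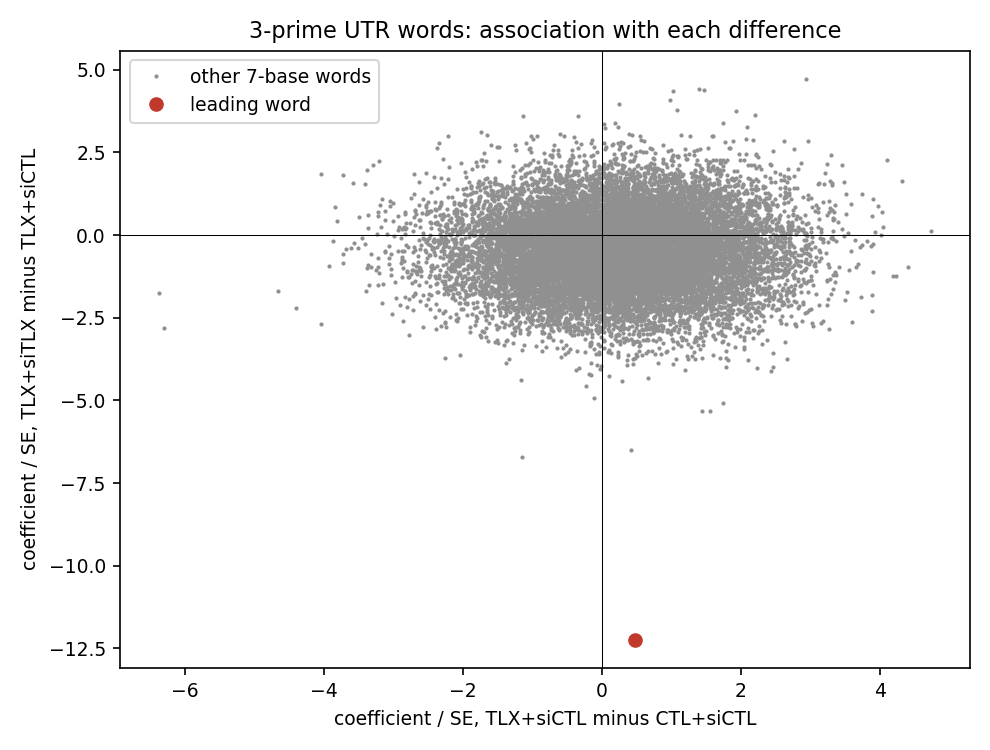
Each point is a 7-base word found in at least 50 of 11202 3′ UTRs, placed by the ratio of its coefficient to its standard error for TLX+siCTL minus CTL+siCTL (horizontal) and for TLX+siTLX minus TLX+siCTL (vertical). The leading word, in red, lies at -12.2 on the vertical and 0.48 on the horizontal axis, apart from all other words, the lowest of which is at -6.71 on the vertical axis.

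Length and composition of the UTRs did not set the members far apart. Their median length was 1396 bases, against 1161 in the other expressed genes, and the median share of A and U was 59.3% against 58.1%. Per kilobase of UTR the members had 0.162 copies of the word, and the other genes 0.0482. There was 1 copy in 33 members and there were 2 or more in 6. Among the 20 lowest members 19 had a UTR and 10 of these held the word. Members with the word had a median fall of -0.74 and those without it -0.72.

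The share of genes with the word rose with the depth of the fall. Since the word was picked from these same differences, that choice favoured a higher share among the falls, and the shares are a description. Among genes that overexpression moved by less than 0.25, the word was in 10 of 20 genes where TLX+siTLX was at least 1 log2 unit below TLX+siCTL, and its share was 26.6% between -1 and -0.6, 18.2% between -0.6 and -0.4 and 11.2% between -0.4 and -0.2. It was 4.49% to 6.89% in the bins above -0.2. Genes outside that window showed a like series, with 42.9% (18 of 42) at -1 or less and 22.6% between -1 and -0.6. Genes with the same fall that TLX had moved held the word as well. It was in 27.6% (27 of 98) of those that TLX overexpression had raised by 0.25 or more, and in 25.9% (28 of 108) of those it had lowered. Of the genes in the same window that were at least 0.6 higher in TLX+siTLX than in TLX+siCTL, 5.99% (13 of 217) held it. Along the overexpression step the share stayed between 7.72% and 9.94%.

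**Figure D4:**
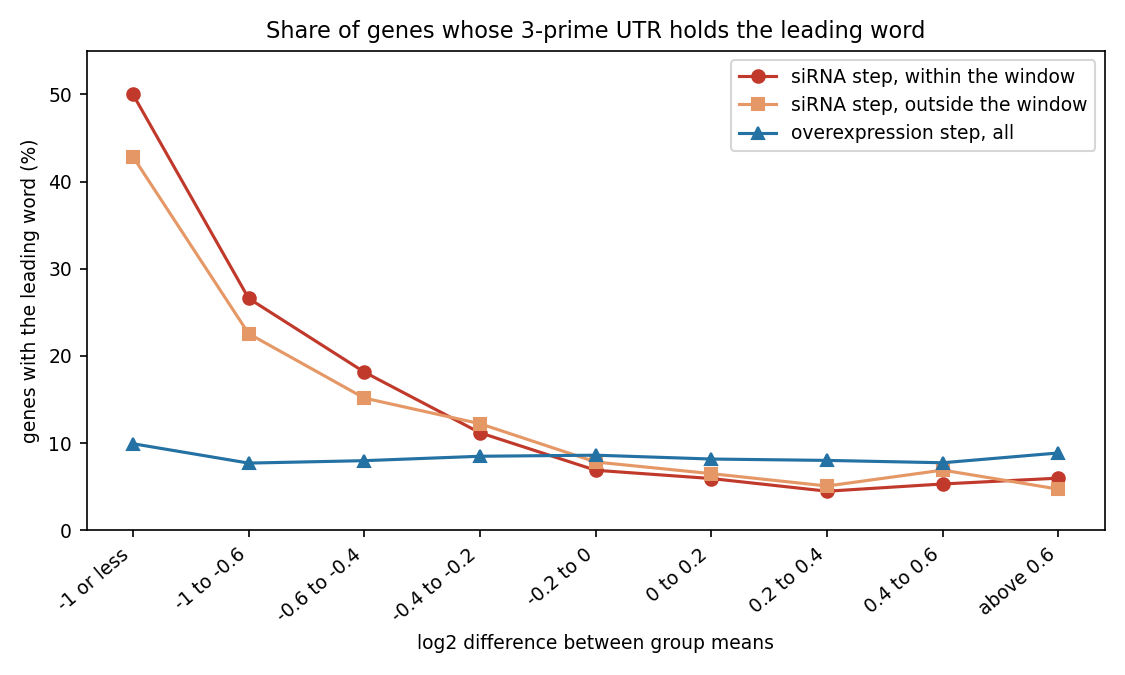
Share of genes (%) whose 3′ UTR holds the leading word, by bins of the log2 difference of group means; circles and squares are bins of TLX+siTLX minus TLX+siCTL for genes within and outside the window of 0.25 in the overexpression step, and triangles are bins of TLX+siCTL minus CTL+siCTL for all genes. The first 2 lines fall from 10 of 20 genes and 42.9% at the left to 5.99% and 4.73% at the right, and the triangles stay between 7.72% and 9.94%. The word was picked from the differences that set the bins of the first 2 lines.

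The base after the word and the place of the word went with the size of the difference. The word was picked from these same differences, so the medians of its forms are a description. MicroRNA sites with a full seed match followed by A are known as the strongest kind, so the word was sorted into 4 forms. Genes with ACACTCT followed by A (form 1, 176 genes, 11 of them members) had a median of -0.23, and those with ACACTCT followed by another base (form 2, 759 genes, 28 members) one of -0.12. Genes with CACTCTA but not ACACTCT (form 3, 491 genes, 11 members) had a median of -0.07, those with only CACTCT (form 4, 2181 genes, 23 members) one of -0.02, and the 7595 genes with none (56 members) one of 0.02. Members were 6.25%, 3.69%, 2.24%, 1.05% and 0.737% of the genes in these classes. The median UTR lengths were 3577.5, 3029, 3066, 2189 and 751 bases, in the same order of classes, and any part of UTR length in these medians was not tested beyond its use as a covariate in the regression. CDKN2AIPNL, the lowest member, is of form 3, and 43.4% of the members had none of the forms.

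**Figure D5:**
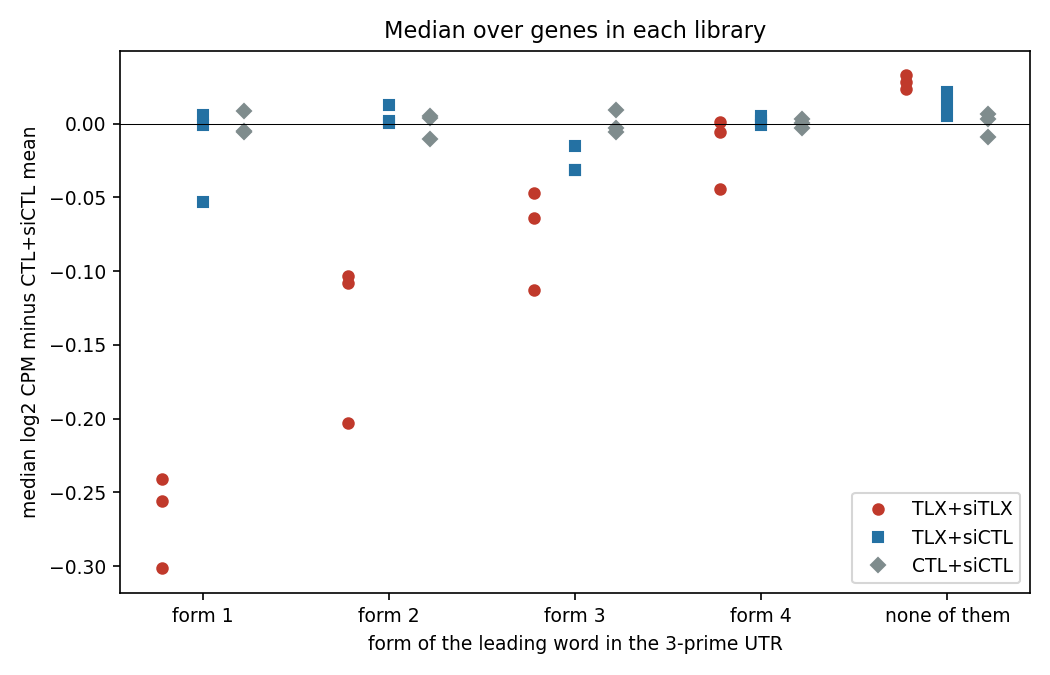
Median over genes of log2 CPM minus the gene's CTL+siCTL mean, in each library, for genes whose 3′ UTR holds form 1 to 4 of the leading word or none of them; red circles are TLX+siTLX, blue squares TLX+siCTL and grey diamonds CTL+siCTL libraries. For form 1 the TLX+siTLX libraries lie between -0.30 and -0.24, the TLX+siCTL libraries between -0.05 and 0.01, and for none of the forms the TLX+siTLX libraries lie at 0.02 to 0.03.

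Genes with the word in the 3′ UTR had a median of -0.14 (935 genes, 39 members), those with it in the coding sequence and not in the 3′ UTR one of -0.04 (801 genes, 19 members), those with it in the 5′ UTR alone one of -0.07 (73 genes, 1 member) and those without it one of 0.01 (9393 genes, 70 members). MRPL22, KLHL24 and CCDC30 have it in the coding sequence. By number of copies in the 3′ UTR the medians were 0.01 for 0 copies, -0.14 for 1 (853 genes), -0.09 for 2 (70 genes) and -0.48 for 3 or more (12 genes), so the order was not even and the last class is small. None of the 2370 mature human microRNAs of the RefSeq table (0 matches) has AGAGUGU, the sequence that pairs with the word, at bases 2 to 8. MicroRNAs that pair with CACTCT or CACTCTA but not with the whole word were not looked up, so any part of theirs was not tested. Whether AGAGUGU is the seed of the TLX siRNA was not tested, since no label gives the sequence of that siRNA. A word in a UTR is a match of letters and not a measured site, and in these groups the siRNA against TLX, the loss of TLX and what follows from either cannot be told apart.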

How the data were processed

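Log2 CPM values for 27548 rows and 9 libraries were deposited by the authors. A further deposited table gives, per gene and comparison, a signed fold, a raw p-value and its false discovery rate. The submitters' processing notes name kallisto 0.44.0, edgeR, limma and GRCh38, as used by the authors, without their roles. Libraries were stranded TruSeq mRNA, per the labels' protocols. Table columns name the group and a running number (S1 to S9), and 0 columns were left unmapped. Read counts are not in these tables, so depth per library is unknown. The lowest value was -5.33 in all 9 libraries. If the prior count was 2, a mean library of 80.5 M reads follows, in which 1 log2 CPM is about 161 reads, and low genes have their differences understated.

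For each of 25245 symbols the row with the highest mean was used. All rows were fitted with limma 3.58.1 (R 4.3.3) on the log2 CPM as deposited, with 1 mean per group, an intensity trend, two-sided tests and Benjamini-Hochberg adjustment at 0.05. The fit was tested on simulated data. The members, the gene lists, the marker lists and the functional groups were chosen with earlier results of these data known. Named members were the 20 with the lowest difference, the 5 with the highest mean, those next to a threshold and those on a list; other members were added after their values were seen.

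Transcripts of GENCODE 29 (137 of 141 members found) gave 1 coding transcript per gene, by APPRIS rank, and its 3′ UTR, and words of 7 bases were counted on the transcript strand. The difference TLX+siTLX minus TLX+siCTL was regressed on each word's presence, log2 UTR length and A+U share (Python 3.11.15, numpy 2.4.6). The alternatives were other thresholds, scalings, transcripts and word lengths, and leaving out each library. MicroRNA sequences are from RefSeq.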

Additional observations from a re-analysis of the deposited data

How the results depend on the processing

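The number of members, 141, was 252 with a threshold of -0.5, 45 with one of -0.8 and 78 with a window of 0.15. It was 137 to 152 when a library was left out, with 114 (without S4) to 132 (without S1) of them among the 141. With quantile normalization 197 genes met the rule, 125 of them among the 141, and with centred library medians 165, of which 135 were. The median difference of -0.74 was -0.67 on a log2(CPM + 1) scale, -0.76 with centred medians and -0.80 with quantile normalization. Members called in the overexpression step depended on the setting: 13 lower became 8 with quantile normalization, 1 without the intensity trend and 4 to 16 when a library was left out, and 16 higher became 10 without the trend and 10 to 20 when a library was left out. NR2E1 in TLX+siTLX against CTL+siCTL, 1.86, was 0.18 (adjusted p 0.387) on a log2(CPM + 1) scale and 1.45 to 2.27 when a library was left out, with adjusted p values of 0.00785 to 0.0549 in limma. The coefficient of ACACTCT, -0.18, was -0.19 without covariates, -0.17 with the longest 3′ UTR, -0.17 on a log2(CPM + 1) scale, -0.16 without the members (chosen after seeing the data) and -0.18 in each fit without a library. The word ranked 1 in every setting with words of 7 bases. With words of 6 bases CACTCT led, at -0.10. Under these alternatives the 28 named members had 336 values. Of these, 323 lay within 1 SD of the value reported, 13 lay further away and 0 changed sign. Values without S1, S2 or S3 could not move, because these libraries do not enter TLX+siTLX minus TLX+siCTL. The same holds for the coefficient and rank of the word. Members were chosen by their fall in this same difference, so the absence of sign changes says little. The cause of the shifts between settings was not tested. No paired analysis was possible because the table's columns carry running numbers that are in no sample's labels. Groups of 3 libraries and an unknown depth limit the precision.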
